A study of Mus musculus with 6 samples.

Results

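Glycolysis and sugar uptake were followed through 32 genes that encode glucose transporters, glycolytic enzymes, lactate-handling proteins and regulators of the pathway. They were picked by gene symbol from a fixed list, and all 32 symbols were present among the 32285 genes of 4 single-cell matrices. The cells were OTII cells, CD4+ T cells with a transgenic receptor for a peptide of ovalbumin (OVA). In 2 libraries (mutant 1 and mutant 2) they were TgfbrIWT/mut, that is with M318R knocked into 1 copy of Tgfbr1 (the type I TGFβ receptor), an allele known from patients with Loeys-Dietz syndrome, and in 2 libraries (WT 1 and WT 2) they were wild type. Donors of both genotypes were OTII+/+RAG-/-, and their cells were given to WT hosts of the CD45.1 type, whose drinking water held 1.5% OVA for 7 days. On day 8 the donor cells were sorted as CD45.2+CD45.1-CD4+CD8-TCRβ+ cells from the hosts' Peyer's patches, which are lymphoid tissue of the gut wall. The labels do not place the libraries in the peanut gavage or rapamycin experiments that the design text also describes, and give no age for the donors. They do not say whether each library is a separate animal, so p-values measure the spread between libraries, which may be technical.

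Glycolysis splits glucose into pyruvate in the cytosol and yields ATP and building blocks. Resting T cells are known to run it at a low rate, and stimulated T cells to raise it together with glucose uptake and lactate export, under control of factors such as HIF-1, Myc and the kinase complex mTORC1. T follicular helper (Tfh) cells, which help B cells in follicles, are known to depend on mTOR signalling, while the Tfh factor Bcl6 is known to restrain glycolytic genes.

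Of 4803 cell barcodes, 2932 were kept as T cells, 869 in mutant 1, 176 in mutant 2, 1266 in WT 1 and 621 in WT 2. Their summed unique molecular identifiers (UMIs, each 1 counted transcript molecule) were 7605383 and 1617621 in the mutant libraries and 11860926 and 5520682 in the WT libraries. The median cell had 8535 and 9028 UMIs in the mutant libraries and 8814.5 and 8584 UMIs in the WT libraries. Mutant 2 was therefore the shallowest library in total, not per cell. All 7 T cell identity genes were detected in every library, at a summed 14236 and 14257 CPM (UMIs scaled to the same fixed total in each library or cluster) in the mutant libraries and 14262 and 14541 CPM in the WT libraries. The 15 epithelial markers summed to 16.6 and 21.6 CPM in the mutant libraries and 11.4 and 16.3 CPM in the WT libraries, with 0 to 5 of them at 0. The 10 B cell markers summed to 294 and 326 CPM in the mutant libraries and 169 and 228 CPM in the WT libraries, with 1 to 3 at 0, and their part in the genotype differences was not tested. There are 3 antibody tags in each WT matrix and none in the mutant matrices, so hashtag handling and genotype cannot be told apart. A total of 62 barcodes had a sequence that occurs in more than 1 library, 14 of them kept T cells.

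The stretches just before the transcription starts of 4 members are shown first, as RefSeq gives them on GRCm38.p6. Slc2a6 and Eno3 are shown because they are the members that passed the test between genotypes. Hk2 and Pgk1, chosen after their values were seen, are shown as members that hold copies of ACGTG, the core letters known to be bound by HIF-1. Each run is 250 bases, read 5′ to 3′ on the gene's strand and ending just before the start, and capitals mark ACGTG or its reverse complement CACGT. The windows are chr2:27027999-27028248 (minus strand, Slc2a6), chr11:70656926-70657175 (plus strand, Eno3), chr6:82774455-82774704 (minus strand, Hk2) and chrX:106186850-106187099 (plus strand, Pgk1).
Slc2a6: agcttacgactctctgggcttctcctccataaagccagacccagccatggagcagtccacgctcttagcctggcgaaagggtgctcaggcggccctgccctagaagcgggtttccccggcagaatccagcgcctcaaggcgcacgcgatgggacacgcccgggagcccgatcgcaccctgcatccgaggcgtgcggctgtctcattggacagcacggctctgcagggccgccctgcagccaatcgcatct
Eno3: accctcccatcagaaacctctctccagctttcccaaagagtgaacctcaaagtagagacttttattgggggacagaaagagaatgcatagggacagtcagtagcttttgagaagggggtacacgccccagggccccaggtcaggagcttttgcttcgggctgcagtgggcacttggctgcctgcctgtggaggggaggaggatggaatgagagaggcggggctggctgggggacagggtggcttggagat
Hk2: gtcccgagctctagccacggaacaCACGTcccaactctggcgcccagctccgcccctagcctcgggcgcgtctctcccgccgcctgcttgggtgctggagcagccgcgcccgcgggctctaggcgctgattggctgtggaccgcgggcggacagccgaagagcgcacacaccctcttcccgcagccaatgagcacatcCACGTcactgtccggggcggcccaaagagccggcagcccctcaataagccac
Pgk1: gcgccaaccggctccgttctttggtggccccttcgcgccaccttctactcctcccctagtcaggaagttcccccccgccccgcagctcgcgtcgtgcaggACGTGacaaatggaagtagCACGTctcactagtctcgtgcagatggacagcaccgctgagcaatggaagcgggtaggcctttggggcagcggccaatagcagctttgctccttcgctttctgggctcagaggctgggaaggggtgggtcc
The Slc2a6 and Eno3 windows held no copy of these letters, while the Hk2 and Pgk1 windows held 2 each.

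RefSeq promoters were matched for 31 members, and Slc2a3 was not matched. With both strands searched, ACGTG stood in 14 of the 31 windows (45.2%), against 17.3% of the 20595 promoters in the table. CACGTG, the E-box core bound by Myc-family factors, which contains ACGTG, stood in 5 windows (16.1%), against 6.41% of all promoters. Ldha had 5 copies of ACGTG and 2 of CACGTG, and Hif1a had 3 and 1. Their windows, counted in both shares above, lie 4329 and 6492 bases from the annotated gene starts, inside those genes. These matches are letters in a window, not measured binding.

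Among T cell states with at least 20 cells in every library, most glycolytic members were higher in one Tfh-like cluster than in the others. States were clusters of cells made with the 32 members left out of the genes used. Tfh-like cells formed cluster 1, with Ascl2, Il21, Tox2 and Pdcd1 among its leading genes, and cluster 3, with Sostdc1, Tox2, Bcl6 and Il4. Cluster 0 was named receptor-stimulated from Egr1, Egr2 and Egr3, and cluster 2 stayed unnamed. These 4 clusters alone had at least 20 cells in every library, and cluster 1 held 241 and 27 cells in the mutant libraries and 93 and 82 cells in the WT libraries. Its cells were also the deepest of the 4, at a median of 11102 UMIs against 8259, 8171.5 and 8238 in clusters 0, 2 and 3. Levels by cluster are CPM of a cluster's summed UMIs in a library, and clusters drawn from the same cells allow no test.

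Of the 24 members with at least 200 UMIs over the 4 clusters, 16 were highest in cluster 1 in all 4 libraries, as were 7.63% of the 7009 genes with that many UMIs. None of the 24 was lowest there in every library, against 5.05% of genes. For 16 of the 24, clusters 1 and 3 both stood above clusters 0 and 2 in every library, against 8.05% of genes. The genes in these shares were not matched to the members on UMIs, which differ widely, with 28696 for Gapdh and 316 for Bpgm. Low counts blur an order between clusters. The count highest in cluster 1 was 15 when the members were used for clustering. It was between 16 and 20 when 1 library was left out, with the 20 reached without mutant 2. Asking for fewer libraries can only keep or raise this count, so that range is no check on it. Outside these clusters, the 24 proliferating cells of cluster 12 (libraries summed) stood above cluster 1 for some members and below for others. Pgk1 had 573 CPM there against 522 CPM in cluster 1, and Eno1 483 against 350 CPM. Aldoa had 713 against 1183 CPM, and Pkm 812 against 1081 CPM.

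**Figure D1:**
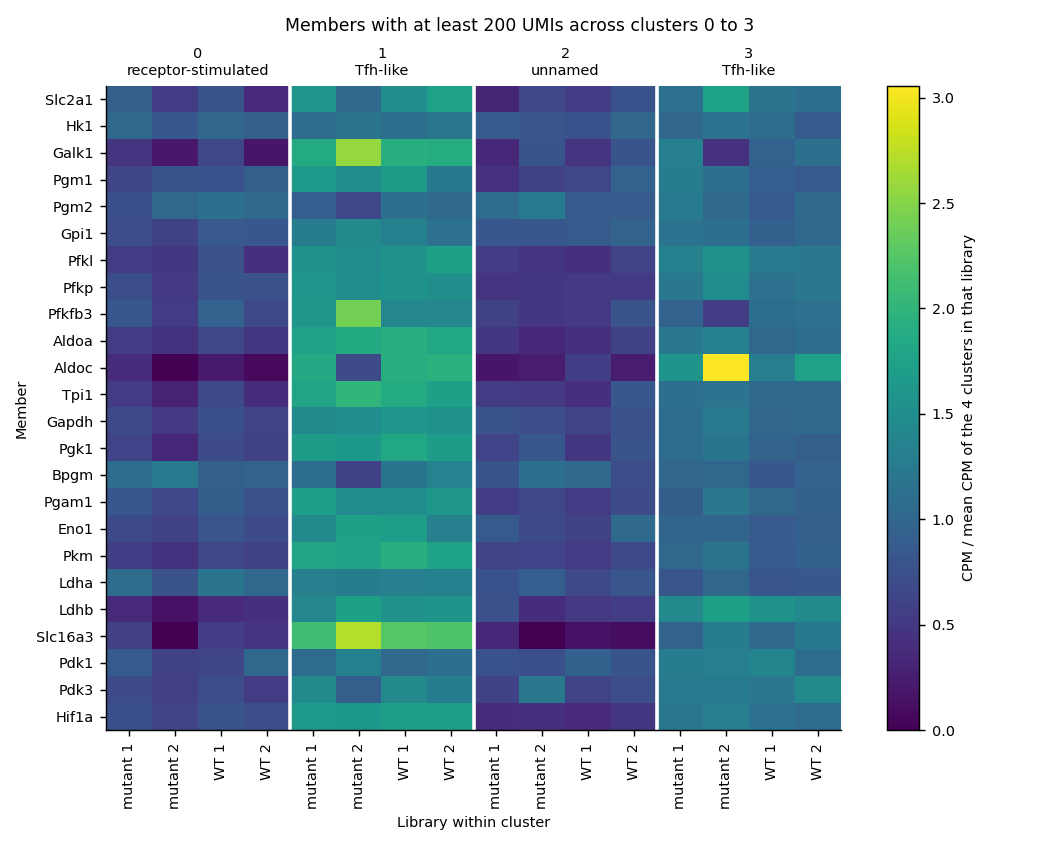
Each row is a member with at least 200 UMIs, each column a library within cluster 0, 1, 2 or 3 (mutant libraries left of WT libraries), and colour gives CPM divided by the member's mean over the 4 clusters in that library. The columns of cluster 1 are the brightest for 16 of the 24 members in all 4 libraries and for Pgm2 in none.

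The transporters differed among themselves. Slc2a1 (GLUT1), the main glucose transporter of stimulated T cells, had 28.9 and 21.8 CPM in cluster 1 of the mutant libraries and 32.8 and 32.1 CPM in that of the WT libraries. In cluster 0 it had 16.8 and 10.9 CPM in the mutant libraries and 17.1 and 6.83 CPM in the WT libraries. Slc2a1 was thus higher in cluster 1 than in cluster 0 in each library, but in mutant 2 it was highest in cluster 3, at 36.6 CPM. Slc2a3 (GLUT3), another glucose transporter, had under 200 UMIs in these clusters and no steady order. In the small unnamed cluster 10, whose leading genes included Foxp3 and Il10, it had 51.7 CPM in mutant 1 (18 cells), against 51.4 and 17.9 CPM in WT 1 and WT 2 (57 and 13 cells).

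Slc2a6 (GLUT6), a sugar transporter of intracellular membranes, was found mostly in cluster 1. There it had 21.3 and 40.5 CPM in the mutant libraries and 13.4 and 7.48 CPM in the WT libraries. Its mean over clusters 0, 2 and 3 was 1.38 and 0 CPM in the mutant libraries and 0.592 and 0.396 CPM in the WT libraries. Of the 77 kept cells with an Slc2a6 UMI, 66 were in cluster 1 and 59 had an Ascl2 UMI, while 470 of the 2932 kept cells had one. Of the other cells, 5 were in cluster 3 and 4 in cluster 12, which has 24 proliferating cells. Over the summed libraries Slc2a6 had 21.7 CPM in cluster 12 and 18.1 CPM in cluster 1. Cluster 0 gave none of 485 cells, which allows a share of up to 0.619%. In naive or memory-like cells the count was 0 of 376 (up to 0.798%), at a median of 8724 UMIs per cell. These limits are for cells with a UMI, not for cells that express the gene. The 145 epithelial barcodes that were left out gave 6 with an Slc2a6 UMI (4.14%), at a median of 5992 UMIs.

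Since cells of cluster 1 were deeper, cells were also thinned to 3000 UMIs each. In cluster 1, 39 of 241 and 9 of 27 mutant cells had an Slc2a6 UMI before thinning, and 12 of 93 and 6 of 82 WT cells. After thinning the shares were 13 of 240 cells (5.42%, Wilson 95% interval 3.19 to 9.05) in mutant 1 and 2 of 24 (8.33%, 2.32 to 25.8) in mutant 2. They were 4 of 93 (4.30%, 1.69 to 10.5) in WT 1 and 1 of 81 (1.23%, 0.218 to 6.67) in WT 2. The intervals, which cover counting error only, overlap between the genotypes. With so few cells holding an Slc2a6 UMI after thinning, that overlap cannot decide on a difference in the share of cells, which was not tested. Over the summed libraries, 20 of 438 thinned cells had such a UMI in cluster 1 and 2 of 417 in cluster 3. In clusters 0 and 2 it was 0 of 479 and 0 of 402.

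**Figure D2:**
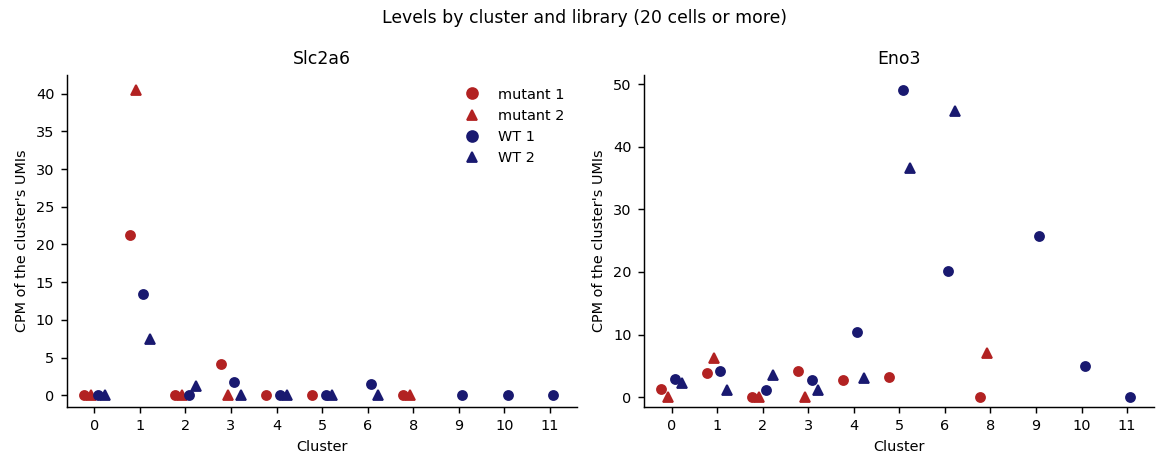
Points are CPM of Slc2a6 (left) and Eno3 (right) in each cluster (x axis, without the epithelial cluster and the 24 proliferating cells) for libraries with at least 20 cells of it, mutant libraries in red left of WT libraries in dark blue. Slc2a6 reached 40.5 CPM in cluster 1 and at most 4.13 CPM in the other clusters shown. Over the summed libraries it had 21.7 CPM in the proliferating cells and 7.01 CPM in the epithelial cluster, both left out. Eno3 reached 49.1 CPM in cluster 5 and 45.7 CPM in cluster 6 of the WT libraries.

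The enzymes of hexose entry differed in how far cluster 1 stood above the others. Hk1, a hexokinase found in most tissues, was 1.12 to 1.28 times as high in cluster 1 as its mean CPM over clusters 0, 2 and 3, in the 4 libraries. Galk1, which phosphorylates galactose, had 39.9 and 43.6 CPM in cluster 1 of the mutant libraries and 35.3 and 34.2 CPM in that of the WT libraries. Its mean over the other 3 clusters was 15.1 and 8.11 CPM in the mutant libraries and 12.8 and 12.7 CPM in the WT libraries. Both genotypes were thus higher in cluster 1. Pgm1, which links glucose 6-phosphate to glycogen and galactose use, was 1.35 to 2.13 times as high in cluster 1. Pgm2, its relative that acts on pentose phosphates, was highest in cluster 1 in none of the libraries. Its level in cluster 1 was 0.884 and 0.597 times its mean over the other 3 clusters in the mutant libraries, and 1.18 and 1.07 times in the WT libraries.

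At the phosphofructokinase step, Gpi1, which makes fructose 6-phosphate, was 1.20 to 1.70 times as high in cluster 1, and Pfkp, the platelet-type subunit that commits sugar to glycolysis, 1.80 to 1.98 times. Pfkl, the liver-type subunit, had 138 and 128 CPM in cluster 1 of the mutant libraries and 117 and 131 CPM in that of the WT libraries. In mutant 2 it was slightly higher in cluster 3, at 135 CPM. Pfkfb3, whose product makes the activator fructose 2,6-bisphosphate, was 1.63 to 4.59 times as high in cluster 1, and the upper end came from mutant 2.

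From aldolase to enolase, 6 of the 8 members with at least 200 UMIs were highest in cluster 1 in every library. Aldoa, which cleaves fructose 1,6-bisphosphate, had 1193 and 1116 CPM in cluster 1 of the mutant libraries and 1271 and 1062 CPM in that of the WT libraries. In cluster 3 it had 836 and 809 CPM in the mutant libraries and 688 and 641 CPM in the WT libraries. In cluster 2 it had 335 and 214 CPM in the mutant libraries and 274 and 349 CPM in the WT libraries. Cluster 1 stood above cluster 3, and cluster 3 above clusters 0 and 2, in every library. Tpi1, which interconverts the 2 triose phosphates, was 2.26 to 3.04 times as high in cluster 1 as its mean over the other 3 clusters. Pgk1, which makes ATP from bisphosphoglycerate, was 2.06 to 2.50 times as high, and Gapdh, the dehydrogenase often used as a reference gene, 1.70 to 2.02 times. Aldoc, another aldolase, followed both Tfh-like clusters, with 24.8 and 54.9 CPM in cluster 3 of the mutant libraries and 26.6 and 26.8 CPM in that of the WT libraries, although mutant 2 had 12.5 CPM in cluster 1. Bpgm, which makes the side product 2,3-bisphosphoglycerate, had no steady order.

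At the lactate end the members separated. Pkm, pyruvate kinase, was 2.35 to 2.74 times as high in cluster 1, and Slc16a3 (MCT4), which exports lactate, 3.37 to 6.39 times. Ldha, which turns pyruvate into lactate, was only 1.43 to 1.51 times as high. In the unnamed cluster 6, whose leading genes include Myc, Ldha had 688 and 719 CPM in the mutant libraries and 802 and 815 CPM in the WT libraries, which was above cluster 1 in each library, although the mutant libraries gave 18 and 7 cells. Slc16a1 (MCT1), a transporter that moves lactate both ways, also stood higher in cluster 6, on few UMIs. There it had 30.2 and 81.5 CPM in the mutant libraries, from 5 and 6 UMIs. In the WT libraries it had 32 and 42.9 CPM, from 43 and 15 UMIs. In cluster 1 it had 13.3 and 3.12 CPM in the mutant libraries, from 35 and 1 UMIs. In cluster 1 of the WT libraries it had 10.1 and 14.96 CPM, from 12 and 14 UMIs. Ldhb, the other lactate dehydrogenase subunit, was above clusters 0 and 2 in both Tfh-like clusters of every library.

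Among the regulators, Hif1a, which encodes the oxygen-regulated subunit of HIF-1, had 1559 and 1537 CPM in cluster 1 of the mutant libraries and 1362 and 1469 CPM in that of the WT libraries. In cluster 3 it had 1136 and 1237 CPM in the mutant libraries and 919 and 918 CPM in the WT libraries. In cluster 2 it had 384 and 402 CPM in the mutant libraries and 286 and 413 CPM in the WT libraries. In both Tfh-like clusters the mutant libraries stood above the WT libraries, while in cluster 2 they overlapped. Pdk1 and Pdk3, kinases that inhibit the mitochondrial enzyme pyruvate dehydrogenase, were above clusters 0 and 2 in both Tfh-like clusters of 4 and 3 libraries.

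Summed over the 32 members, cluster 1 gave 1.03% and 0.979% of its UMIs to these genes in the mutant libraries and 1.06% and 0.959% in the WT libraries. Cluster 3 gave 0.725% and 0.753% in the mutant libraries and 0.646% and 0.618% in the WT libraries. Cluster 0 gave 0.460% and 0.332% in the mutant libraries and 0.499% and 0.404% in the WT libraries. Over all kept T cells the shares were 0.708% and 0.552% in the mutant libraries and 0.495% and 0.530% in the WT libraries. The mutant libraries were thus above the WT libraries over all cells and in cluster 3, while the genotypes overlapped in clusters 0 and 1. Cluster 2 overlapped too, at 0.421% and 0.388% in the mutant libraries and 0.357% and 0.430% in the WT libraries. Cluster 1 held 27.7% and 15.3% of kept cells in the mutant libraries and 7.35% and 13.2% in the WT libraries. In sums over cells, more cells of a type and more RNA per cell cannot be told apart.

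**Figure D3:**
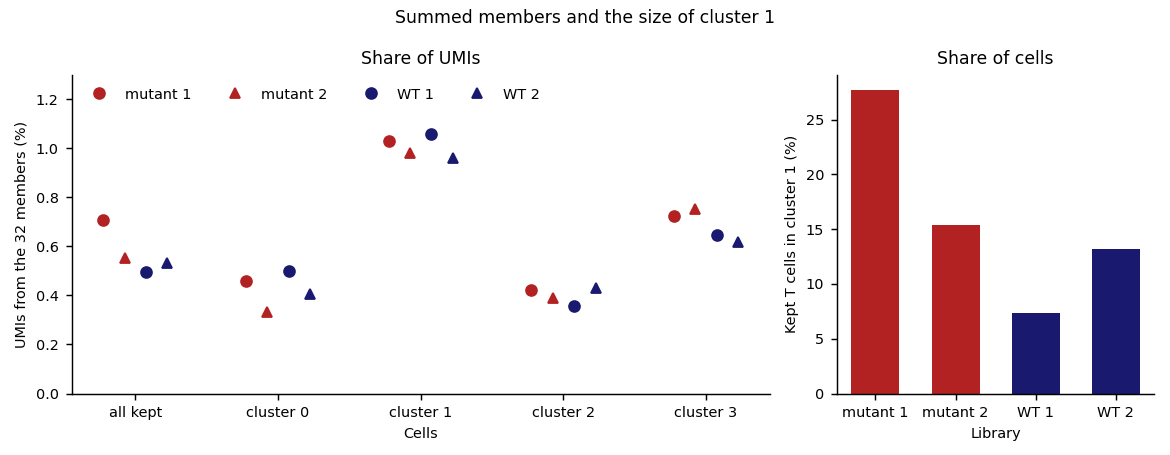
The left panel plots the percentage of UMIs from the 32 members in all kept T cells and in clusters 0 to 3, with a point per library, and the right panel the percentage of kept T cells in cluster 1 (bars, 1 per library). Over all cells mutant 1 is highest at 0.708%, while in cluster 1 the 4 libraries lie between 0.959% and 1.06%.

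By genotype, the sums of UMIs over all kept T cells were compared with edgeR's quasi-likelihood test and Benjamini-Hochberg adjustment at 0.05, mutant minus WT. Filtering on low counts left 31 members. Eno2, a neuronal enolase with 9 UMIs in all, was not tested. Slc2a6 rose and Eno3 fell, while the other 29 did not pass. Of all 10624 genes tested, 1.03% passed, 0.555% as higher and 0.471% as lower in mutant cells. The median log2 fold change was 0.29 over the members and -0.01 over all genes. At an unadjusted p under 0.05 stood 14 members, 12 higher (6.53% of genes) and 2 lower (5.31% of genes). The mutant libraries lay wholly above the WT libraries for 16 members (22.2% of genes) and wholly below for 2 (22.9% of genes). CPM in these comparisons are scaled by TMM (trimmed mean of M-values).

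Several members carry limits of counting. The strand setting is not given in the sources used here, and Hk1, Pgm1, Pfkm, Pfkp, Pfkfb3, Tpi1, Gapdh and Hif1a overlap genes on the other strand that also had UMIs, while Pfkm and Slc16a1 overlap such genes on their own strand. Gapdh, Aldoa, Tpi1, Pgk1, Pgam1, Eno1, Pkm and Ldha have close copies elsewhere in the genome, so reads could have been split among them.

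Slc2a6 (ENSMUSG00000036067, GRCm38 chr2:27021363-27027998, minus strand) overlaps no other annotated gene. It had 8.57 and 9.54 CPM in the mutant libraries, from 64 and 16 UMIs, and 1.72 and 1.64 CPM in the WT libraries, from 20 and 9 UMIs. The mean was 9.06 ± 0.683 CPM in mutant cells and 1.68 ± 0.0575 CPM in WT cells (SD, n = 2 each), so the groups were well apart. The log2 fold change was 2.38 ± 0.37 (SE), with an adjusted p of 0.0036 by edgeR's quasi-likelihood test. Without the shared barcodes it was 2.39 (adjusted p = 0.00695 by edgeR). With clusters 0 to 6 and 8 held at their mean shares over the libraries, the difference was 1.12 and the adjusted p 0.309. Clusters 9 to 12, with under 5 cells in at least 1 library, were left out of that fit, and cluster 12 held 4 of the cells with an Slc2a6 UMI. The adjusted p was 0.0839 without mutant 1 and 0.293 with the epithelial cluster kept, and it ran from 9.1e-08 to 0.309 over the 13 alternatives.

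Eno3 (ENSMUSG00000060600, chr11:70657202-70662513, plus strand), the muscle enolase, also overlaps no other gene. It had 2.81 and 2.39 CPM in the mutant libraries, from 21 and 4 UMIs, and 13.1 and 8.38 CPM in the WT libraries, from 152 and 46 UMIs. The mean was 2.60 ± 0.303 CPM in mutant cells and 10.7 ± 3.32 CPM in WT cells (SD, n = 2 each), and both mutant libraries were below both WT libraries. The log2 fold change was -2.02 ± 0.35 (SE), with an adjusted p of 0.00737 by edgeR's quasi-likelihood test. Without the shared barcodes it was -2.01 (adjusted p = 0.0145 by edgeR). At equal shares of clusters 0 to 6 and 8 it was -1.61 with an adjusted p of 0.0264. The adjusted p was 0.357 without WT 1, 0.115 without mutant 1, 0.105 by DESeq2 and 0.37 with the epithelial cluster kept, and it ran from 1.27e-07 to 0.37 over the 13 alternatives.

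Most Eno3 UMIs came from 3 smaller clusters that were also rarer in mutant libraries. These clusters were chosen after the levels of Eno3 were seen, so their values are a description with no test. Clusters 5 (cytotoxic or Th1-like), 6 and 9 (receptor-stimulated) gave 152 of the 223 UMIs. They held 6.90% and 8.52% of kept cells in the mutant libraries and 25.0% and 16.6% in the WT libraries. Within these 3 clusters Eno3 stood at 3.33 CPM in mutant 1 (2 UMIs, exact Poisson interval 0.403 to 12.02) and 5.52 CPM in mutant 2 (1 UMI, 0.140 to 30.8). It stood at 33.6 CPM in WT 1 (112 UMIs, 27.7 to 40.4) and 37.2 CPM in WT 2 (37 UMIs, 26.2 to 51.2). Both mutant libraries were below both WT libraries, on 60 and 15 such cells in the mutant libraries and 317 and 103 in the WT libraries. In cluster 1 the genotypes overlapped, with 3.80 and 6.23 CPM in the mutant libraries (10 and 2 UMIs) and 4.20 and 1.07 CPM in the WT libraries (5 and 1 UMIs).

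**Figure D4:**
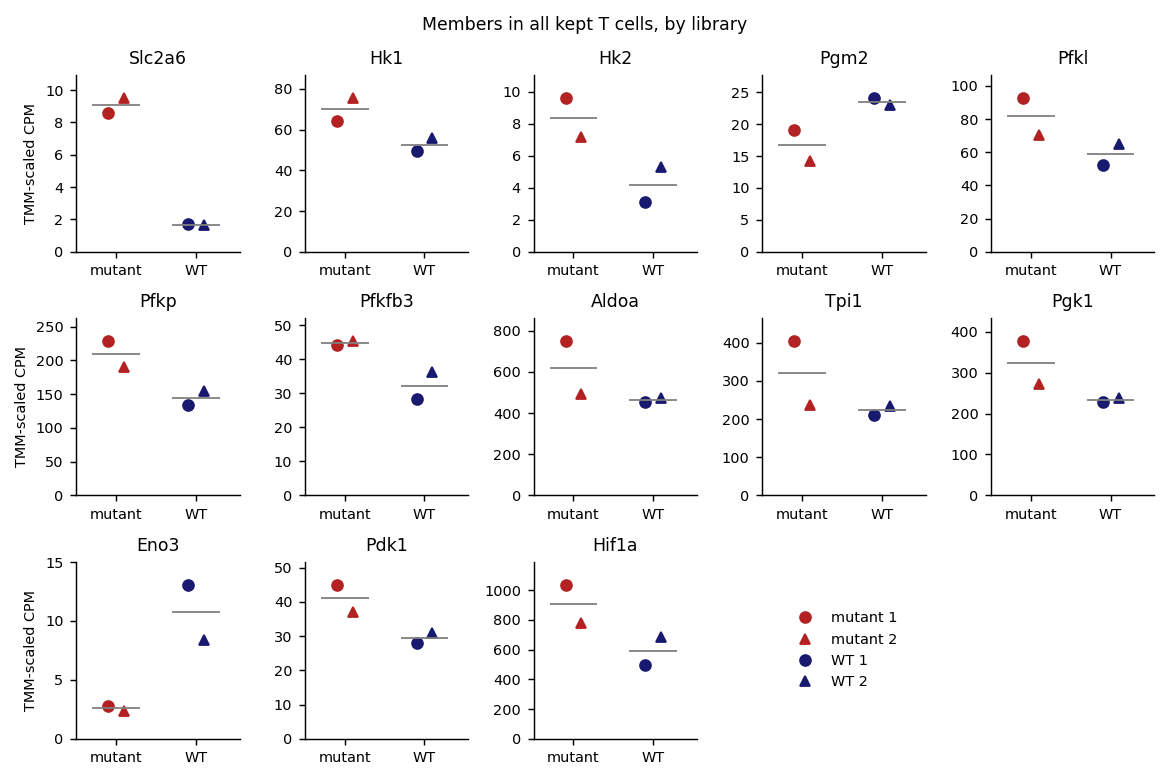
Points are TMM-scaled CPM per library (y axes from 0) over all kept T cells, mutant left and WT right, with grey lines at the group means, for the 13 members whose genotypes do not overlap and whose unadjusted p is under 0.05. Slc2a6 and Eno3 are the members past the adjusted threshold, and mutant 1 stands well above mutant 2 for Aldoa, Tpi1 and Pgk1.

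Of the other transporters, Slc2a1 had 19.96 and 19.1 CPM in the mutant libraries and 17.0 and 16.6 CPM in the WT libraries, with no overlap but a log2 fold change of 0.23 and an adjusted p of 0.67 by edgeR. Slc2a3 had 10.0 and 7.15 CPM in the mutant libraries and 10.8 and 7.83 CPM in the WT libraries and overlapped. A further 11 members had separate groups and an unadjusted p under 0.05 but missed the adjusted threshold. Hk2, the inducible hexokinase, had 9.65 and 7.15 CPM in the mutant libraries and 3.10 and 5.28 CPM in the WT libraries, a log2 fold change of 1.17 ± 0.34 (SE, adjusted p = 0.128 by edgeR). It was as large at equal cluster shares, at 1.11. Hk1 had 64.2 and 75.7 CPM in the mutant libraries and 49.5 and 55.7 CPM in the WT libraries (0.39 ± 0.15, adjusted p = 0.299 by edgeR). Pgm2 had 19.2 and 14.3 CPM in the mutant libraries and 24.2 and 22.9 CPM in the WT libraries (-0.41 ± 0.18, adjusted p = 0.386 by edgeR). Among these 3, Hk1 and Hk2 were higher and Pgm2 lower in both mutant libraries. Galk1 and Pgm1 overlapped between the genotypes.

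At the phosphofructokinase step, Pfkp had 229 and 191 CPM in the mutant libraries and 134 and 154 CPM in the WT libraries, a log2 fold change of 0.55 ± 0.14 (SE, adjusted p = 0.0809 by edgeR). Pfkl had 93.0 and 70.4 CPM in the mutant libraries and 52.4 and 65.0 CPM in the WT libraries (0.52 ± 0.16, adjusted p = 0.159 by edgeR). Pfkfb3 had 44.2 and 45.3 CPM in the mutant libraries and 28.2 and 36.2 CPM in the WT libraries (0.49 ± 0.17, adjusted p = 0.214 by edgeR). All 3 were higher in both mutant libraries, as was the muscle-type subunit Pfkm, which had 3.08 and 4.17 CPM in mutant cells and 2.92 and 1.64 CPM in WT cells. Gpi1 and Pfkfb4 overlapped.

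Of the 9 tested members from aldolase to enolase, Aldoa had 749 and 492 CPM in the mutant libraries and 454 and 471 CPM in the WT libraries (log2 fold change 0.43 ± 0.17, adjusted p = 0.314 by edgeR). Tpi1 had 404 and 236 CPM in the mutant libraries and 211 and 234 CPM in the WT libraries (0.55 ± 0.19, adjusted p = 0.214 by edgeR). Pgk1 had 377 and 272 CPM in the mutant libraries and 229 and 237 CPM in the WT libraries (0.49 ± 0.16, adjusted p = 0.171 by edgeR). Mutant 2 lay just above the WT libraries for Aldoa and Tpi1, and mutant 1 far above. Without mutant 2, 8 members passed the threshold, Slc2a6, Eno3, Pfkl, Pfkp, Aldoa, Tpi1, Pgk1 and Hif1a, and without mutant 1 none did, while the genes past it numbered 184 and 37, against 109 with all libraries. Without WT 1 the only member past it was Slc2a6, and without WT 2 there were 3, Slc2a6, Eno3 and Hif1a, beside 38 and 211 genes. Gapdh, with 1853 and 1426 CPM in the mutant libraries and 1438 and 1470 CPM in the WT libraries, overlapped, as did Bpgm and Pgam1. Aldoc had 16.2 and 13.1 CPM in the mutant libraries and 12.5 and 12.02 CPM in the WT libraries, and Eno1, the enolase of most tissues, 280 and 212 CPM in the mutant libraries and 206 and 200 CPM in the WT libraries. These 2 did not overlap, with unadjusted p values of 0.157 and 0.0638 by edgeR.

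No member at the pyruvate and lactate end separated the genotypes. Ldha had 566 and 393 CPM in the mutant libraries and 575 and 529 CPM in the WT libraries, and Pkm 670 and 470 CPM in the mutant libraries and 479 and 511 CPM in the WT libraries. Slc16a3 had 16.2 CPM in mutant 1 but 5.37 CPM in mutant 2, on either side of 6.45 and 9.84 CPM in the WT libraries. Among the regulators, Hif1a had 1036 and 778 CPM in the mutant libraries and 494 and 687 CPM in the WT libraries (log2 fold change 0.63 ± 0.18, adjusted p = 0.121 by edgeR). Pdk1 had 45.0 and 37.0 CPM in the mutant libraries and 28.0 and 30.8 CPM in the WT libraries (0.53 ± 0.16, adjusted p = 0.153 by edgeR). Hif1a, Pdk1 and Pdk3 were all higher in both mutant libraries.

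With clusters 0 to 6 and 8 reweighted to their mean shares, and the smaller clusters 9 to 12 left out, the median log2 fold change of the members was 0.10, against 0.29 in the plain sums. Then 6 members had an unadjusted p under 0.05, against 11.01% of the 10495 genes tested, and in the plain sums 14 members did, against 11.8% of genes. The difference of Hif1a was 0.21 and that of Tpi1 0.21.

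Within Tfh-like cells (392 and 53 cells in the mutant libraries, 221 and 195 cells in the WT libraries), 30 members were tested and none passed by edgeR's quasi-likelihood test or by DESeq2, against 0.306% of 9137 genes by edgeR. At an unadjusted p under 0.05 stood 9 members, all higher, against 4.56% of genes. The genotypes did not overlap for 12 members as higher (18.9% of genes) and 1 as lower (18.7%). Slc2a6 had 16.6 and 21.6 CPM in the mutant libraries and 7.75 and 3.71 CPM in the WT libraries (log2 fold change 1.58 ± 0.38, adjusted p = 0.0949 by edgeR). Hk2 had 13.3 and 16.6 CPM in the mutant libraries and 2.15 and 8.48 CPM in the WT libraries (1.47 ± 0.47, adjusted p = 0.296 by edgeR). Pgk1 had 529 and 431 CPM in the mutant libraries and 387 and 325 CPM in the WT libraries (0.45 ± 0.15, adjusted p = 0.325 by edgeR). All 3 were higher in both mutant libraries. Cluster 1, where most Slc2a6 UMIs lay, gave 241 of the 392 and 27 of the 53 Tfh-like cells in the mutant libraries, and 93 of the 221 and 82 of the 195 in the WT libraries. At equal shares of clusters 1 and 3, a setting added after seeing the data, the difference of Slc2a6 was 1.29 (adjusted p = 0.24 by edgeR, within a range of 0.00526 to 1.00 over 12 alternatives). Hif1a had 1493 and 1383 CPM in the mutant libraries and 1143 and 1183 CPM in the WT libraries (0.31 ± 0.14, adjusted p = 0.594 by edgeR). Pdk1 had 51.5 and 54.9 CPM in the mutant libraries and 37.9 and 37.6 CPM in the WT libraries (0.47 ± 0.19, adjusted p = 0.511 by edgeR). Hif1a, Pdk1, Hk1, Pfkp and Pfkl were likewise separate and higher. Hk1 had 72.7 and 94.9 CPM in the mutant libraries and 60.7 and 56.7 CPM in the WT libraries (0.42 ± 0.17, adjusted p = 0.515 by edgeR). Pfkp had 328 and 291 CPM in the mutant libraries and 251 and 247 CPM in the WT libraries (0.33 ± 0.13, adjusted p = 0.511 by edgeR). Pfkl had 138 and 130 CPM in the mutant libraries and 105 and 111 CPM in the WT libraries (0.32 ± 0.14, adjusted p = 0.561 by edgeR). Pgm2 was the member wholly lower, at 20.2 and 11.6 CPM in the mutant libraries and 22.4 and 25.4 CPM in the WT libraries. Without mutant 2, Slc2a6, Tpi1 and Pgk1 passed, and without WT 2, Hk2 did (2.69, adjusted p = 0.0414 by edgeR, within a range of 0.0386 to 1.00 over 12 alternatives).

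In cluster 1 alone, 27 members were tested and none passed by edgeR or by DESeq2, against 0.492% of 7724 genes by edgeR. At an unadjusted p under 0.05 stood 2 of them, Slc2a6 and Hk2, both higher, against 4.44% of genes. Slc2a6 had 22.2 and 40.4 CPM in the mutant libraries and 13.6 and 7.53 CPM in the WT libraries (1.25 ± 0.42, adjusted p = 0.252 by edgeR). Hk2 had 16.7 and 21.8 CPM in the mutant libraries and 3.40 and 10.8 CPM in the WT libraries (1.38 ± 0.51, adjusted p = 0.339 by edgeR). Both rest on few UMIs, 56 and 13 for Slc2a6 and 42 and 7 for Hk2 in the mutant libraries, and 16 and 7 for Slc2a6 and 4 and 10 for Hk2 in the WT libraries. The median over the members was 0.01. Gapdh lay wholly lower, with 2621 and 2484 CPM in the mutant libraries and 2886 and 2632 CPM in the WT libraries, and Aldoa overlapped, with 1246 and 1113 CPM in mutant cells and 1285 and 1069 CPM in WT cells. Wholly higher were 8 members (18.9% of genes), Slc2a6, Hk1, Hk2, Galk1, Pfkp, Pfkfb3, Pdk1 and Hif1a. Wholly lower were 3 (19.7%), Slc2a1, Pgm2 and Gapdh.

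**Figure D5:**
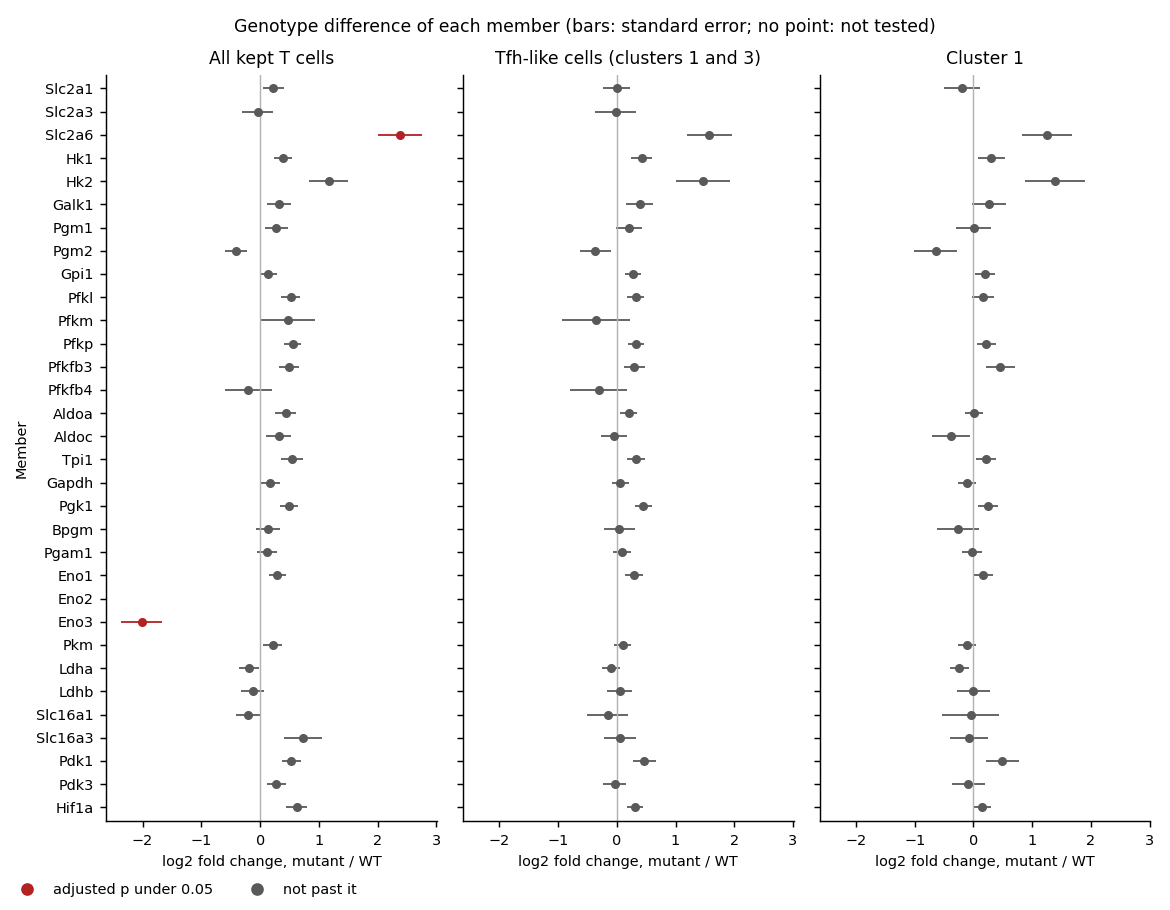
Points are log2 fold changes (mutant over WT) of each tested member with standard errors as bars, over all kept T cells, Tfh-like cells and cluster 1, and red marks an adjusted p under 0.05. The median of the members is 0.29, 0.15 and 0.01 in the 3 panels, and Slc2a6 and Hk2 lie to the right of 0 in each. Cells of cluster 1 count in all 3 panels, so the panels are not independent.

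In cluster 0, named receptor-stimulated as was the smaller cluster 9, 23 members were tested. None passed by edgeR or by DESeq2, nor did any of 7737 genes by edgeR (0%). Only Pgm2 had an unadjusted p under 0.05, as lower, against 2.48% of genes, with 14.6 and 14.3 CPM in the mutant libraries and 25.8 and 25.2 CPM in the WT libraries (-0.81 ± 0.37, adjusted p = 0.946 by edgeR). It was wholly lower, as was Pkm (18.6% of genes), and Hk1 was wholly higher (17.8%). Ldha had 573 and 311 CPM in the mutant libraries and 694 and 531 CPM in the WT libraries and overlapped between the genotypes. Without mutant 1 it passed, at -0.98 on the log2 scale. Slc2a6, Hk2 and Eno3, with at most 5 UMIs in any library, were among the 9 members not tested there.

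Whether the genotype effect in naive or memory-like cells was the same as in Tfh-like cells was tested as an interaction over 28 members, with 15 naive or memory-like cells in mutant 2. No member passed by edgeR's quasi-likelihood test or by DESeq2, against 0.194% of 8758 genes by edgeR, and 4 had an unadjusted p under 0.05, against 5.86% of genes. Tpi1 had 558 and 417 CPM in mutant Tfh-like cells and 425 and 364 CPM in WT Tfh-like cells. In naive or memory-like cells it had 163 and 108 CPM in the mutant libraries and 69.1 and 79.6 CPM in the WT libraries. The mutant libraries were higher in both classes except for mutant 2 among Tfh-like cells, which lay between the WT libraries. Its effect was 0.66 smaller in Tfh-like cells on the log2 scale (-0.66 ± 0.24, adjusted p = 0.431 by edgeR). That difference was -1.20 (adjusted p = 0.00263) with the members used for clustering and -0.95 (adjusted p = 0.0312) at a Leiden resolution of 0.5, by the same test, and its adjusted p ran from 0.00263 to 1 over 10 alternatives. Slc2a6 had no UMI in naive or memory-like cells of any library, so no such difference is given for it.

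Other genes of the pathway were described from fixed lists. Over all kept T cells, none passed edgeR's quasi-likelihood test among 14 tested other sugar and glycolysis genes, 11 of pyruvate entry, 10 of the pentose phosphate path, 15 hypoxia-response genes and 22 of mTORC1 and the amino acid response. At an unadjusted p under 0.05 stood 0, 0, 2, 4 and 5 of them, in that order, against 11.8% of all genes tested. Their median log2 fold changes were -0.21, -0.06, -0.13, 0.15 and -0.09. The hypoxia-response list was the one with a median above 0. Its median was 0.17 within Tfh-like cells and 0.16 in cluster 1, which are parts of the same cells and no separate evidence. Whether this list differed from other genes was not tested.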

How the data were processed

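The deposited values were UMI counts per gene and cell from 10x 3′ libraries, which the authors made using mm10, Cell Ranger 6.0.0 and Seurat 4, per the submitters' processing notes; other settings are not given in the sources used here. The 2 WT hashtag samples were not analysed here. Cells with at least 500 genes and at most 10% mitochondrial UMIs were kept, and 31 doublets called by Scrublet and 145 cells of an epithelial cluster were removed. Of the 62 shared barcodes, 14 were among the kept T cells. Clusters came from scanpy 1.11.5 (2000 variable genes, less excluded families and the members, 30 components, 15 neighbours, Leiden resolution 0.8), and were named from at least 3 listed markers among the 50 leading genes.

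Counts were summed per library and compared with edgeR 4.0.16 (TMM, its default filter on low counts, quasi-likelihood test, Benjamini-Hochberg adjustment over all genes tested, 0.05), in R 4.3.3. The SE is the log2 fold change divided by the square root of the F statistic. The test was tested on simulated data. DESeq2 1.42.0, other scalings, filters, clusterings and libraries left out were alternatives. Full values are given for members past the threshold, or with separate genotypes and an unadjusted p under 0.05. The members and lists were chosen with earlier results of these data known. The exact Poisson, Wilson and zero-count limits (3 counts) cover counting error only.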

Additional observations from a re-analysis of the deposited data

How the results depend on the processing

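Of the members over all kept T cells, 6 passed the threshold with no filter on low counts, 1 by DESeq2, 0 with the epithelial cluster kept, 1 at equal cluster shares and 0 to 8 with 1 library left out, against 2. The genes past it numbered 362 with no filter, 45 by DESeq2, 0 with the epithelial cluster kept, 70 without shared barcodes and 37 to 211 with 1 library left out, against 109. In Tfh-like cells 2 members passed with no filter and 0 to 3 with 1 library left out. The genes there numbered 104 with no filter, 2 by DESeq2, 18 with a stricter cell filter, 55 at a resolution of 0.5 and 19 to 211 with 1 library left out, against 28. In cluster 0 the members numbered 0 to 1 with 1 library left out, and the genes 9 with no filter, 1 with a stricter cell filter, 5 with the members used for clustering, 7 at a resolution of 0.5 and 2 to 25 with 1 library left out, against 0. In cluster 1 the genes numbered 0 by DESeq2 and 1 to 130 with 1 library left out, against 38. In the interaction 1 member passed with the members used for clustering and 1 at a resolution of 0.5. The genes there numbered 7 and 8 under these settings, 0 by DESeq2 and 2 to 29 with 1 library left out, against 17. The cause was not tested.

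Replicate numbers pair the samples nowhere in the labels, and the correlation of same-numbered deviations was 0.0188 over all kept T cells, -0.0230 in Tfh-like cells, 0.107 in cluster 0 and -0.0216 in cluster 1, over 2 pairs. With the replicate block, 6 members and 334 genes passed over all kept T cells, 69 genes in Tfh-like cells, 1 member (Ldha, -0.46, adjusted p = 0.0373 by edgeR) and 69 genes in cluster 0 and 68 genes in cluster 1. The named members were picked by their genotype difference over all kept T cells. A kept sign in refits of the same counts was thus largely fixed in advance. Those tested kept their sign in all 169 fits over all kept T cells and all 144 in Tfh-like cells. Members that were not called changed sign in 24 of 110 fits in cluster 0, 5 of 132 in cluster 1 and 21 of 120 in the interaction. A library left with no partner was assumed to vary like the other genotype. The comparisons within clusters 0 and 1, and the settings without shared barcodes or the shallow cluster, were added after seeing the data. The shallow cluster is the unnamed cluster 8, at a median of 3429 UMIs per cell. It held 6.79% and 15.9% of kept cells in the mutant libraries and 1.18% and 3.06% in the WT libraries. Without it, 2 members and 93 genes passed over all kept T cells by edgeR. A comparison within naive or memory-like cells was not run, because mutant 2 had 15 such cells against a minimum of 20. Low counts limit the precision for Slc2a6, Hk2 and Eno3, and mutant 2 is the library with the fewest cells.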
